A study of Mus musculus with 9 samples.

Results

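The genes described here encode chromatin modifiers that lie outside the polycomb repressive complex PRC2. They were chosen by symbol, as the lysine demethylases (Kdm), the MLL and SETD methyltransferases, the CHD and SMARC remodelers, the ARID proteins, the histone deacetylases (Hdac), the DNA methyltransferases and TET dioxygenases, and the chromobox (Cbx), Pcgf and Asxl proteins, with Kdm5d left out. The rule used no measured value and gave 95 of the 23420 symbols in the table. Of these, 93 were above 0 in at least 1 library, and 81 reached an RPKM (reads scaled to gene length and library size) of 1 or more in 2 or more libraries and were tested together with all other such genes, 10868 in all. The 95 members comprise 16 lysine demethylases, 13 MLL and SETD proteins, 9 CHD remodelers, 14 SMARC rows, 9 ARID proteins, 11 deacetylases, 7 DNMT and TET enzymes, and 16 chromobox, Pcgf and Asxl proteins.

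Chromatin modifiers place, remove or read chemical marks on histones and DNA, or use ATP to slide and evict nucleosomes. PRC2, whose enzyme is Ezh2, methylates a lysine of histone H3 at silenced genes, and several members act on the same or the opposing side. Kdm6a and Kdm6b take that mark off, MLL proteins and SWI/SNF remodelers oppose polycomb silencing, and Pcgf proteins and the polycomb-type Cbx proteins belong to PRC1, which reads the mark and ubiquitinates histone H2A. In blood, Tet2, Dnmt3a, Asxl1 and the MLL genes are known as recurrent targets of mutation in myeloid disease.

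RNA was sequenced from 9 libraries of Mac1+ bone marrow cells, each of 100 sorted cells, from C57BL/6 mice. Mac1 is an integrin of granulocytes and monocytes. All 3 groups carry floxed Ezh2 and floxed Runx1 on both chromosomes. The DKOITD group (4 libraries) adds Rag1Cre and 1 Flt3 allele with an internal tandem duplication (ITD), which makes this receptor kinase active without its ligand. The ITD group (2 libraries) adds that Flt3 allele and no Cre. The WT group (3 libraries) adds neither, so it is wild type for Flt3 and carries the floxed alleles unrecombined. Rag1 is active in early lymphoid cells, and the sources used here give neither the share of Mac1+ cells in which Cre acted nor the age of the mice. No label ties a library to its own animal, so each p-value reflects spread among the libraries alone, which may be technical.

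Recovered reads lay between 2823889 in DKOITD 2 and 23114340 in WT 1. WT 2 stood apart, with a median correlation of 0.865 with the 8 other libraries across genes, against 0.907 to 0.939 for the rest. The Mac1 gene Itgam measured 11.0, 33.3, 24.8 and 39.0 RPKM in DKOITD libraries 1 to 4, with 78.1 and 97.3 in ITD and 100.5, 143 and 90.3 in WT, so the gated marker was present in every library. Ezh2 did not differ past the threshold between DKOITD and WT (log2 difference 0.14 ± 0.69, SE; limma adjusted p = 0.913), and values per gene do not resolve the floxed exons. Neutrophil markers summed to 37293 to 266221 RPKM in DKOITD, 685271 to 729068 in ITD and 884339 to 1193697 in WT, and 9 of 13 tested were lower in DKOITD than in WT. Dendritic cell and MHC class II markers summed to 9505 to 38376 RPKM in DKOITD, 4271 to 11458 in ITD and 73.8 to 1242 in WT, with 12 of 14 higher in DKOITD and Zbtb46, Siglech and Ccr7 at 0 in every ITD and WT library. Monocyte and macrophage markers summed to 2418 to 3768 RPKM in DKOITD, 3968 to 4105 in ITD and 2692 to 3381 in WT, with 5 of 10 tested higher in DKOITD than in WT. B lineage markers summed to 42.7 to 70.8 RPKM in DKOITD, 7.93 to 23.2 in ITD and 5.16 to 15.5 in WT, with 1 of 2 tested higher in DKOITD than in WT. Of 15 proliferation markers, 2 were lower in DKOITD than in WT. These marker sums and calls are for RPKM as deposited and depend on the scaling. All genes together summed to 442684 to 725674 RPKM in DKOITD and 1340289 to 1645344 RPKM in WT. In bulk samples fewer cells of a type and less RNA per cell cannot be told apart. The part of these marker differences in the results on chromatin genes was not tested.

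Of the 81 tested members, 2 were lower and 0 were higher in DKOITD than in WT (limma, Benjamini-Hochberg adjusted p under 0.05). This is 2.47% of the members, and 12.7% of all tested genes passed, 7.43% as higher and 5.27% as lower. Both called members are Arid3a, an ARID protein that binds AT-rich DNA and is known from B cells, and Setd8, the histone H4 lysine monomethyltransferase now named Kmt5a. At an unadjusted p under 0.05 there were 15 members, 18.5% of the tested ones, against 30.2% of all tested genes. The members' median log2 difference was -0.23, with 51 of 81 below 0 (63.0%). Over all tested genes the median was 0.17, with 43.4% below 0.

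Arid3a (chromosome 10, 79927043 to 79955018 in mm10, with no other annotated gene overlapping it) measured 1.18, 5.80, 3.63 and 3.85 RPKM in DKOITD libraries 1 to 4. The ITD libraries held 9.60 and 9.94 RPKM, and the WT libraries 17.3, 45.8 and 15.7 RPKM. The 3 groups do not overlap, with DKOITD lowest and WT highest. Arid3a fell in DKOITD against WT by 2.51 ± 0.51 on the log2 scale (SE; limma adjusted p = 0.0107), lower in 4 of 4 DKOITD libraries. These values rest on 76 to 307 recovered reads per DKOITD library, 240 and 621 in ITD, and 971 to 2763 in WT. Without WT 2, its highest library, the difference was -2.03 (limma adjusted p = 0.0352).

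Setd8 (chromosome 5, 124439930 to 124462308, with no overlapping gene) measured 9.75, 12.3, 11.3 and 21.1 RPKM in DKOITD, with 37.1 and 50.9 in ITD and 59.2, 77.5 and 26.2 in WT. Every DKOITD library lay below every ITD and WT library, while ITD lay within the WT range. Setd8 fell in DKOITD against WT by 1.85 ± 0.42 on the log2 scale (SE; limma adjusted p = 0.0165). The limma adjusted p was 0.0505 without DKOITD 1, 0.0535 without DKOITD 3 and 0.0539 without WT 2, with differences of -1.72, -1.78 and -1.53. Erythroid markers, a lineage in which Setd8 is known to be abundant, summed to 1.48, 9.50, 3.56 and 1.28 RPKM in DKOITD libraries 1 to 4, with 0 and 2848 in ITD and 17210, 5468 and 20.2 in WT. Within WT, Setd8 was lowest in WT 3, which had the lowest marker sum. It was higher in WT 2 than in WT 1, which had the highest marker sum. As a mean of log2(RPKM + 1) these markers were alike in WT 1 and WT 2, at 3.94 and 3.95. That mean was 0.99 in WT 3 and 4.48 in ITD 2. Of the 9 marker symbols 7 had a row, and Hba-a1 and Hba-a2 were at 0 in every library. ITD 1, at 0 RPKM of these markers, held less Setd8 than ITD 2 and more than every DKOITD library. The part of erythroid cells in the Setd8 difference was not tested.

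The sample descriptions carry a number of unstated meaning, 228 to 274 for DKOITD libraries 1 to 3 and 385 to 393 for the 6 others, DKOITD 4 among them. In DKOITD 4 alone, Arid3a was at 3.85 RPKM and Setd8 at 21.1 RPKM, below the 15.7 to 45.8 RPKM and 26.2 to 77.5 RPKM of the WT libraries. With that number series as a term in the fit, Arid3a differed by -2.33 ± 0.82 and Setd8 by -1.19 ± 0.61 (SE; limma adjusted p = 0.423 and 0.559), no member passed, and 0.0368% of all tested genes did.

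The promoter of Setd8 is shown because it is called and because it holds an unusual number of CCAAT boxes, and that of Hdac4 because its DKOITD libraries also lay below all others. Both are the 250 bases before the start of the gene in RefSeq (build GRCm38.p6), with the CCAAT box (CCAAT, or ATTGG for the other strand) in capitals. The Setd8 window is chr5:124439680-124439929 on the plus strand, before the first of 3 starts in the table. The Hdac4 window is chr1:92180342-92180591 on the minus strand, at the start RefSeq gives. GENCODE, the source of the gene positions here, places the gene at 91928779 to 92195699, so the window lies inside that span.
Setd8: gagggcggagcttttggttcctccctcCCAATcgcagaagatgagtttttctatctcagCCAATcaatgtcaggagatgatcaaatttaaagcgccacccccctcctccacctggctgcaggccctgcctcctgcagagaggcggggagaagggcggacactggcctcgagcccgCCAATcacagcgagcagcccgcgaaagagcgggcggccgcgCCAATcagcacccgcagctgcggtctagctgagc
Hdac4: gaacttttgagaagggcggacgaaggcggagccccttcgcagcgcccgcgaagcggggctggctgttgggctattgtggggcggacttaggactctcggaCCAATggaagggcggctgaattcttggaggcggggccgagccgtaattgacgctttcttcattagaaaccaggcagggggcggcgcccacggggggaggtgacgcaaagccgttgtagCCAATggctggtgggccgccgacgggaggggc
The Setd8 window holds 4 CCAAT boxes and the Hdac4 window 2, without overlap. At least 1 box stands in 33.8% of the 32851 windows of 27025 genes in the table, at least 2 in 10.1% and at least 4 in 0.840%. The RUNX core TGTGGT (or ACCACA), searched because Runx1 is floxed, is in neither window and in 14.0% of all windows. The GC box GGGCGG (or CCGCCC) is present 3 times in the Setd8 window and 4 times in the Hdac4 window, and at least once in 32.7% of all windows. Among the 102 windows of the 73 members found in the table, 11.8% held the RUNX core, 33.3% a CCAAT box and 68.6% a GC box. These are letter matches in a short window and carry no measurement of binding.

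The direction of the whole set depended on how libraries were scaled. The 95 members summed to 471, 463, 480 and 489 RPKM in DKOITD libraries 1 to 4, with 549 and 536 in ITD and 684, 787 and 560 in WT. As a share of each library's summed RPKM the order was the opposite, at 0.0866% ± 0.0182 in DKOITD (SD, n = 4), 0.0484% and 0.0441% in ITD, and 0.0453% ± 0.0031 in WT (SD, n = 3). The 100 highest genes took 56.5% ± 9.44 of summed RPKM in DKOITD (SD, n = 4), 79.1% and 79.9% in ITD and 84.0% ± 1.93 in WT (SD, n = 3; DKOITD against WT, two-sided exact permutation p = 0.0571, which is the lowest value 4 against 3 libraries can give).

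Scaling each library to the same RPKM sum moved the median log2 difference of all tested genes to 1.21 and that of the members to 0.87, with 17 members higher and 1, Arid3a, lower (22.2% of the members, against 47.3% of all tested genes). Scaling to recovered reads gave medians of 0.74 for all genes and 0.42 for the members, with Cbx1, Cbx3, Dnmt3a and Smarcad1 higher and Arid3a lower (6.17%, against 25.5% of all tested genes). Quantile normalization gave -0.03 and -0.40, with 4 members lower, among them Arid3a, Dnmt3l and Setd8 (4.94%, against 13.3% of all tested genes). Under the 5 scalings the members' median stayed below that of all tested genes by 0.32 to 0.40, and between 57 and 61 of the 81 members lay below it. Arid3a was the member past the threshold under each of these scalings. Its difference was -1.30 with equal RPKM sums, just past the threshold (limma adjusted p = 0.0497), and -1.85 per recovered read (limma adjusted p = 0.0194). Setd8 was not past it with equal RPKM sums (-0.50, limma adjusted p = 0.290) or per recovered read (-1.11, limma adjusted p = 0.0545).

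Set against all 5 other libraries, the 4 DKOITD libraries did not overlap for 10 members. They were lower for 7, among them Arid3a, Arid3b, Arid4b, Hdac4, Kdm2a and Setd8, which is 8.64% of the tested members, with 6.78% of all tested genes. They were higher for Dnmt3a, Pcgf6 and Smarcad1, which is 3.70%, with 7.85% of all tested genes. Pcgf6, Chd3 and Cbx2 reached 1 RPKM in DKOITD libraries alone and Dnmt3l in ITD and WT libraries alone, so these 4 entered the tests through the group in which they were high, and their place in any count here rests in part on that filter. Against WT alone, 13 members were lower without overlap (16.0%, against 10.9% of all tested genes) and the same 3 were higher (14.1% of all tested genes). The 13 comprise those 7 and Dnmt3l, Kdm4c, Kdm5a, Kdm5b, Kdm6a and Mll5. The 95% interval of the log2 difference lay within -1 and 1 for 4 members, Arid1a, Asxl2, Hdac3 and Hdac7, or 4.94%, against 6.66% of all tested genes. For all other tested members the interval reaches beyond -1 or 1, so a difference of that size is not excluded for them.

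By mean RPKM over all libraries the highest members were Setd8 (33.9), Hdac3 (24.5), Arid1a (21.1), Smarcb1 (20.6) and Cbx3 (19.9). Within DKOITD the order began with Smarcb1, Hdac3, Cbx3, Arid1a and Cbx1, and Setd8 ranked 8. Within WT it began with Setd8, Mll5, Arid3a, Hdac3 and Arid1a. WT 2 held the highest value of 29 tested members (35.8%), against 21.2% of all tested genes. The median SD between libraries of a group, on the log2 scale, was 0.43 in DKOITD and 0.62 in WT for the members, close to the 0.47 and 0.68 of all tested genes.

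The family medians that follow are for RPKM as deposited, and all 8 were above 0 with equal RPKM sums and per recovered read. As deposited, 43.4% of all tested genes had a log2 difference below 0, which stands beside each family's count below 0. Lysine demethylases remove methyl groups from histone lysines. None of the 14 tested passed in DKOITD against WT. Their median log2 difference was -0.43, and 10 of 14 were below 0. Kdm4c, which acts on histone H3 lysines of silent chromatin, measured 3.16, 2.36, 3.59 and 2.06 RPKM in DKOITD, with 2.86 and 9.59 in ITD and 12.9, 5.56 and 6.04 in WT (-1.21 ± 0.50, SE; limma adjusted p = 0.133). All DKOITD values lay below those of WT, and those of DKOITD 2 and 4 also lay below both ITD libraries. Kdm6b, an eraser of the PRC2 mark that responds to inflammatory signals and has the highest mean of the family, measured 5.28, 14.9, 7.46 and 11.9 RPKM in DKOITD, with 22.0 and 26.0 in ITD and 13.9, 22.7 and 22.5 in WT (-0.98 ± 0.41, SE; limma adjusted p = 0.130). DKOITD 2 overlapped with WT, and the sign turned with equal RPKM sums (0.32). Kdm6a, the X-linked eraser of the same mark, measured 3.62, 4.42, 6.30 and 5.13 RPKM in DKOITD, with 4.53 and 1.54 in ITD and 6.78, 9.72 and 6.64 in WT. All DKOITD and ITD values were below the WT values, with a log2 difference of -0.57 between DKOITD and WT (limma adjusted p = 0.410). Kdm5a, which erases the methyl mark of active promoters, was even among 6 libraries, at 6.32, 6.68, 6.83 and 6.52 RPKM in DKOITD and 6.45 and 7.14 RPKM in ITD, against 11.2, 12.2 and 7.41 RPKM in WT.

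Many MLL and SETD proteins, though not all, methylate histone lysines, and Setd8 was the 1 of 12 tested that passed. The family's median was -0.53, with 10 of 12 below 0. Its summed RPKM was 54.1, 71.6, 52.1 and 77.7 in DKOITD, 92.4 and 121 in ITD and 159, 187 and 82.0 in WT, lower in every DKOITD library than in all others. Without Setd8 the groups overlapped, at 44.3, 59.3, 40.9 and 56.6 RPKM in DKOITD, with 55.2 and 70.3 in ITD and 99.5, 109 and 55.8 in WT. As a share of library RPKM the family overlapped between DKOITD and WT, at 0.0107% to 0.0119% in DKOITD and 0.0061% to 0.0113% in WT. Mll5 (now Kmt2e), a family member with no clear methyltransferase activity and a known part in haematopoiesis, measured 12.6, 15.0, 9.82 and 15.6 RPKM in DKOITD, with 12.8 and 19.3 in ITD and 35.1, 33.7 and 17.3 in WT (-1.02 ± 0.37, SE; limma adjusted p = 0.0931). DKOITD lay below WT and overlapped with ITD, and the sign turned with equal RPKM sums (0.32). Mll1, Mll3 and Mll2 differed by -0.49, -0.52 and -0.23, and none passed. The row Mll2 implied a gene length of 19827 bases, near the 19931 exon bases of Kmt2d and far from the 9596 of Kmt2b, and is taken as Kmt2d. Setd6 had the largest positive difference, at 0.96 ± 0.65 (SE; limma adjusted p = 0.337), with 4.07, 3.11, 1.55 and 0.240 RPKM in DKOITD, with 2.43 and 0 in ITD and 0, 0 and 2.17 in WT.

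CHD proteins are ATP-driven remodelers with chromodomains. None of 8 tested passed, with a median of -0.53 and 6 of 8 below 0. Chd7, a remodeler of enhancers, measured 1.53, 3.77, 1.79 and 1.14 RPKM in DKOITD, with 6.39 and 5.77 in ITD and 5.48, 12.6 and 3.19 in WT (-1.30 ± 0.52, SE; limma adjusted p = 0.118). DKOITD lay below ITD, and DKOITD 2 was above the lowest WT library. Chd2 measured 0.448, 3.53, 1.55 and 1.47 RPKM in DKOITD, with 3.59 and 2.92 in ITD and 7.86, 7.68 and 2.48 in WT (-1.35 ± 0.54, SE; limma adjusted p = 0.118), and genes that overlap it may share its reads. Chd4, the ATPase of the NuRD deacetylase complex and the highest of the family, was between 6.17 and 10.3 RPKM in DKOITD, with 7.30 and 7.55 in ITD and between 6.84 and 20.5 in WT (-0.56 ± 0.44, SE; limma adjusted p = 0.404).

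Apart from Smarcad1 and Smarcal1, SMARC genes encode the ATPases and subunits of SWI/SNF and the ISWI ATPases. None of 11 tested passed, with a median of -0.15 and 7 of 11 below 0. Smarcad1, a remodeler that restores silent chromatin after replication, measured 5.20, 4.61, 4.37 and 4.14 RPKM in DKOITD, with 2.88 and 1.76 in ITD and 1.35, 2.69 and 1.63 in WT. All 4 DKOITD libraries were above the 5 others, and the log2 difference from WT was 0.97 ± 0.43 (SE; limma adjusted p = 0.152), rising to 2.00 with equal RPKM sums and 1.54 per recovered read, both past the threshold. The core subunit Smarcb1 varied widely within groups, at 30.7, 9.74, 29.5 and 26.1 RPKM in DKOITD, with 22.8 and 2.93 in ITD and 12.2, 20.4 and 31.2 in WT (0.14 ± 0.61, SE; limma adjusted p = 0.898). The SWI/SNF ATPase Smarca4 was more even, at 2.87 to 6.28 RPKM in DKOITD, with 4.56 and 6.05 in ITD and 4.62 to 5.56 in WT (-0.13 ± 0.43, SE; limma adjusted p = 0.869). Smarcd2, the SWI/SNF subunit needed for granulocyte formation, was at 17.3, 10.1, 11.8 and 11.9 RPKM in DKOITD, with 21.1 and 24.0 in ITD and 27.9, 17.3 and 16.4 in WT (-0.63 ± 0.35, SE; limma adjusted p = 0.248). It exceeded its paralogue Smarcd1 by 2.33 to 14.7 times in DKOITD, 13 and 13.7 in ITD and 12.8, 103 and 12.2 in WT. The highest of these is WT 2, where Smarcd1 rests on 6 reads. Smarca5 and its pseudogene row Smarca5-ps may share reads.

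ARID proteins bind DNA through an AT-rich interaction domain, and some are SWI/SNF subunits. Arid3a was the 1 of 8 tested that passed, and the median was -0.21. Its paralogue Arid3b measured 1.36, 2.09, 2.73 and 3.70 RPKM in DKOITD, with 4.38 and 8.10 in ITD and 4.41, 12.6 and 4.23 in WT (-1.11 ± 0.51, SE; limma adjusted p = 0.164). Arid4b, a subunit of the Sin3 deacetylase complex, measured 4.78, 7.66, 4.95 and 7.16 RPKM in DKOITD, with 10.6 and 11.1 in ITD and 12.9, 13.4 and 9.33 in WT (-0.86 ± 0.38, SE; limma adjusted p = 0.152). Both had every DKOITD library below the 5 others and did not pass. Arid1a, the SWI/SNF subunit that is often mutated in cancer, was even among the DKOITD libraries, at 21.7, 20.0, 22.6 and 22.1 RPKM, with 16.8 and 14.1 in ITD and 28.7, 29.0 and 15.1 in WT. Its log2 difference from WT was -0.10, with a 95% interval of -0.84 to 0.63. Arid1a was at least 6.96 times the level of its alternative Arid1b in each of the 9 libraries.

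Histone deacetylases remove acetyl groups and mostly act in corepressor complexes. None of 10 tested passed, and the median was 0.01, with 4 of 10 below 0. Hdac4, a class IIa enzyme that shuttles between nucleus and cytoplasm, measured 1.83, 2.91, 3.23 and 4.33 RPKM in DKOITD, with 13.7 and 8.99 in ITD and 6.95, 9.70 and 8.05 in WT. Every DKOITD library was below the 5 others, and the log2 difference from WT was -1.21 ± 0.43 (SE; limma adjusted p = 0.0821). Hdac3, the enzyme of the NCoR complex, had the highest mean of the family, at 20.9, 28.4, 24.1 and 19.2 RPKM in DKOITD, with 30.7 and 21.9 in ITD and 27.1, 16.3 and 32.3 in WT. The groups overlapped throughout, with a difference of -0.08 and a 95% interval of -0.83 to 0.66. The paralogues Hdac1 and Hdac2 differed by -0.67 and 0.50 (limma adjusted p = 0.314 and 0.602). Their ratio was 0.536 to 1.25 in DKOITD, 1.18 and 3.51 in ITD, and 0.811 to 4.96 in WT, so the groups overlap.

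DNMT enzymes methylate DNA, and TET enzymes oxidise the methyl group. None of 5 tested passed, with a median of -0.50, which turned to 0.20 over 7 members with no filter on low values. The de novo enzyme Dnmt3a measured 3.26, 5.44, 4.0 and 3.51 RPKM in DKOITD, with 1.52 and 2.76 in ITD and 1.70, 2.27 and 0.616 in WT, and differed by 1.04 ± 0.46 (SE; limma adjusted p = 0.151). The maintenance enzyme Dnmt1 measured 8.27, 2.99, 4.28 and 8.15 RPKM in DKOITD, with 11.6 and 6.79 in ITD and 8.20, 18.6 and 12.4 in WT, and differed by -1.05 ± 0.47 (SE; limma adjusted p = 0.158). Within a library, where scaling cancels, Dnmt3a was 0.394, 1.82, 0.933 and 0.430 times Dnmt1 in DKOITD, 0.131 and 0.407 in ITD and 0.207, 0.122 and 0.0497 in WT. Every DKOITD ratio was above every WT ratio, and DKOITD 1 lay just below the higher ITD library. This pair was chosen after the values were seen, and its ratio was not tested. Dnmt3l, the inactive cofactor of Dnmt3a, was near 0 in DKOITD, at 0.132, 0.145, 0 and 0.0354 RPKM from at most 3 reads a library, with 3.17 and 0 in ITD and 0.765, 3.80 and 4.26 in WT (-1.72 ± 0.56, SE; limma adjusted p = 0.0616). Its gene overlaps Aire. Tet2, the main TET enzyme of myeloid cells, was at 7.88, 10.8, 10.1 and 9.46 RPKM in DKOITD, with 6.92 and 10.2 in ITD and 7.60, 8.99 and 5.08 in WT (0.38 ± 0.39, SE; limma adjusted p = 0.528), above Tet3 in each library.

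The chromobox, Pcgf and Asxl proteins form or oppose PRC1 and heterochromatin complexes. None of 13 tested passed. Their median was 0.40, with 5 of 13 below 0, above the median of all tested genes as deposited and within -0.01 to 0.23 of it under the 5 scalings. The 3 HP1 genes that bind silent chromatin, Cbx1, Cbx3 and Cbx5, differed by 0.72, 0.54 and -0.07, and Cbx3, the highest of the family, was at 17.3 to 26.7 RPKM in DKOITD, with 17.2 and 28.2 in ITD and 8.63 to 23.5 in WT. Pcgf6, a subunit of a variant PRC1, measured 3.12, 0.391, 1.85 and 0.127 RPKM in DKOITD, with 0.102 and 0 in ITD and 0, 0.0843 and 0 in WT (1.01 ± 0.48, SE; limma adjusted p = 0.173). In DKOITD 2 and 4 that value rests on 3 and 4 reads. Asxl1, the polycomb deubiquitinase cofactor mutated in myeloid disease, was at 3.34 to 6.69 RPKM in DKOITD, with 5.11 and 13.5 in ITD and 6.66 to 15.3 in WT (-0.82 ± 0.49, SE; limma adjusted p = 0.277).

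The 14 members that were not tested were low. Hdac11 and Smarca1 were listed at 0 in all 9 libraries. Kdm4d, Chd5, Smarcd3, Arid3c, Asxl3 and Pcgf2 stayed under 0.2 RPKM, and Tet1, Smarca5-ps, Dnmt3b, Cbx6, Setd4 and Kdm4a reached 0.447, 0.777, 1.18, 1.36, 2.52 and 4.39 RPKM at their highest. Dnmt3b and Tet1 were above 0 in the 4 DKOITD libraries and in ITD 1, from 2 to 76 reads in DKOITD, and were listed at 0 in ITD 2 and in the 3 WT libraries.

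DKOITD against ITD asks what Rag1Cre adds to the floxed alleles and the Flt3 allele that both groups carry, with 2 ITD libraries. No member passed (limma), and 0.212% of all tested genes did. At an unadjusted p under 0.05 there were 6 members (7.41%), against 15.7% of all tested genes. Setd8 (-1.66 ± 0.47), Hdac4 (-1.61 ± 0.48), Kdm6b (-1.29 ± 0.46) and Arid3a (-1.33 ± 0.58) were lower in DKOITD, and Kdm1b (1.59 ± 0.57) and Chd3 (1.1 ± 0.45) were higher, all with SE and with limma adjusted p of 0.111 to 0.291. Chd3 is among the members that entered the tests through DKOITD alone. Kdm1b, a demethylase of histone H3, measured 1.81, 2.74, 2.33 and 2.92 RPKM in DKOITD and 0.128 and 0.154 RPKM in ITD, while WT spanned 0.124 to 3.42 RPKM. Kdm2b, also among the 10 smallest p, measured 2.78, 1.81, 3.44 and 1.19 RPKM in DKOITD and 0.588 and 0.581 RPKM in ITD. Groups did not overlap for 9 members higher in DKOITD (11.1%, against 17.3% of all tested genes) and 12 lower (14.8%, against 14.0%). The members' median was -0.04, with 0.11 over all tested genes.

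ITD against WT asks what the Flt3 allele alone does, with 2 against 3 libraries. No member passed (limma), and 1 gene of all tested did (0.0092%). Kdm6a had an unadjusted p under 0.05, the single such member (1.23%, against 7.93% of all tested genes), with a difference of -1.20 ± 0.54 (SE; limma adjusted p = 0.620). Hdac9, a class IIa deacetylase, measured 2.49 and 1.30 RPKM in ITD and 0.944, 0.0163 and 0.0477 in WT (1.15 ± 0.57, SE; limma adjusted p = 0.668). Hdac5 of the same class measured 1.96 and 2.56 RPKM in ITD and 7.03, 7.47 and 3.45 in WT (-1.05 ± 0.56, SE; limma adjusted p = 0.681). Groups did not overlap for 3 members higher in ITD (Cbx8, Hdac9 and Mll2; 3.70%, against 10.1% of all tested genes) and 9 lower (11.1%, against 8.99%). The members' median was -0.22, with 0.00 over all tested genes, and 57 of 81 were below 0 (70.4%, against 48.3% of all tested genes). The members' median was -0.34 without WT 3 and -0.093 without WT 1. Both comparisons with DKOITD share its 4 libraries, and those with ITD or WT share theirs.

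A list of 93 other chromatin genes, such as PRC1 and NuRD subunits, corepressors, readers and acetyltransferases, had 90 tested genes, and its median difference between DKOITD and WT was -0.25. Of the 90, 1 was higher and 6 were lower (limma), which is 7.78%, against 12.7% of all tested genes. Trim28, the corepressor of KRAB zinc finger proteins, had a mean of 23.8 ± 2.88 RPKM over 4 DKOITD libraries (SD) and 8.93 ± 2.53 RPKM over 3 WT libraries (SD), and rose by 1.34 on the log2 scale (limma adjusted p = 0.0270). The lower genes were the remodeler subunits Baz1a (-1.84) and Baz1b (-1.64), the corepressors Rcor1 (-1.70) and Ncor1 (-1.41), the PRC1-binding protein Yaf2 (-1.62) and the bromodomain reader Brd3 (-1.25), the last outside the naming rule and named because the count is small. None passed in either other comparison. These calls are for RPKM as deposited. Equal RPKM sums moved the median log2 difference of all tested genes between DKOITD and WT from 0.17 to 1.21. The size of the differences listed here therefore depends on the scaling. Whether each call holds under other scalings, or once the numbers in the sample descriptions are allowed for, is not reported here.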

How the data were processed

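The authors deposited RPKM values for 23420 gene symbols in a single table. The submitters' processing notes name STAR 2.4.2a, SAMtools 1.1, HTSeq 0.6.1p1 and mm10 without their roles. The Smart-seq2 protocol in the labels does not mark strand, so overlapping genes may share reads. The sources used here do not state the annotation or the RPKM scaling.

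Members and gene lists were chosen with earlier results of these data known. The 10868 genes that reached 1 RPKM in 2 or more libraries were fitted as log2(RPKM + 1) with limma 3.58.1 in R 4.3.3 (lmFit, eBayes with a trend), all 9 libraries in 1 fit of 3 groups, tested two-sided with Benjamini-Hochberg adjustment over all tested genes and a threshold of 0.05. Differences on this scale understate changes of low genes. The fit was checked on simulated data.

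Whole reads were recovered from RPKM steps for 13114 of 13114 genes above 0 in at least 2 libraries (tolerance 0.0001 reads) and served for depth and for 1 scaling. The RPKM denominator over a library's own reads is known only relative to its geometric mean over the 9 libraries. On that relative scale it was 1.13 to 1.44 in DKOITD, 0.853 to 0.918 in ITD and 0.703 to 0.809 in WT. Reads from PCR copies, with no molecular identifiers, do not count independent molecules.

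Named are members past the threshold, the 10 with the smallest p in each comparison where fewer passed, and in each family the member with the highest mean and that with the largest difference between DKOITD and WT. Other members are named after their values were seen, and 1 gene is not reported here. From the other chromatin genes at most 5 in each direction are named. Positions are from GENCODE vM21, and promoter sequences from RefSeq. Alternatives covered the pseudocount, filters, scalings, library weights, a replicate block, the label number series, the libraries in the fit and each library left out. No pair of libraries held identical values.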

Additional observations from a re-analysis of the deposited data

Results flagged for a closer look

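Chd3, the NuRD remodeler, measured 0.467 RPKM in DKOITD 4 and 1.55 to 1.73 RPKM in DKOITD libraries 1 to 3, so that this library lay far below the other 3 by Dixon's criterion. The DKOITD values of 29 named members were examined in this way, and chance gives about 1 such case in 20 groups. The cause was not tested.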

How the results depend on the processing

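Between DKOITD and WT, 4 members were called after quantile normalization, 18 with equal RPKM sums, 5 when scaled to recovered reads and 0 when the series of label numbers entered the fit, against 2 as reported. Their median log2 difference was -0.51 with the stricter filter (RPKM of 5), 0.87 with equal RPKM sums and 0.42 per recovered read. Of all tested genes, 12.7% passed as reported, 13.3% after quantile normalization, 47.3% with equal RPKM sums and 25.5% per recovered read. The share was 0.0368% with the label number series, 8.13% with the replicate block and 4.71% with no filter. With a library left out it was 4.94% (without DKOITD 3) to 18.0% (without WT 3). For DKOITD against ITD that share ranged over the alternatives between 0 and 14.7% (0.212% as reported), and for ITD against WT between 0 and 0.432% (0.0092% as reported). Leaving out each library in turn called 1 to 6 members, with Setd8 lost without DKOITD 1, DKOITD 3 or WT 2 and with Chd2, Mll5 and Setd5 among those added without WT 3. Between DKOITD and ITD, 4 members were called with equal RPKM sums (Arid1a, Hdac2, Kdm1b and Smarcad1), or 4.94%, against 14.7% of all tested genes. With library weights 1 was called (Setd8), or 1.23%, against 4.84% of all tested genes. The median of the members was 0.86 with equal sums and 0.45 per recovered read. Between ITD and WT the median was 0.071 with equal RPKM sums. The sign turned with equal sums for Mll5 (0.32) and Kdm6b (0.32) against WT and for Smarcd2 (0.22) against ITD. Between ITD and WT, leaving out a library in turn gave Hdac8 differences of -0.19 to 2.38 and Smarcb1 differences of -2.41 to 0.19. Arid3a passed in 19 of 20 alternatives and Setd8 in 14 of 20, with limma adjusted p of 0.00834 to 0.423 and 0.00641 to 0.559. The cause was not tested.

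Deviations from the group mean had correlations of -0.04 to 0.07 over 7 pairs of same-numbered libraries, and -0.13 to 0.17 over 19 other pairs. The 2 ITD libraries deviate by equal and opposite amounts, so their correlations with any other library have opposite signs. These values therefore cannot decide whether the numbers pair libraries. With the replicate block, 2, 0 and 0 members were called, and the medians were -0.23, 0.03 and -0.23 for DKOITD against WT, DKOITD against ITD and ITD against WT.

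With 100 cells a library, 2 ITD libraries and wide intervals, a member that missed the threshold is not shown to be alike between groups.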
